A study of Mus musculus with 4 samples.

Results

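Enteroendocrine cells were studied as the cells that the deposited cell table assigns to that type, 492 of 15053 cells from the small intestines of mice on a control or a ketogenic diet. The 4 single-cell libraries, 2 per diet, held 63 and 148 such cells on the control diet and 186 and 95 on the ketogenic diet. A ketogenic diet is rich in fat and very poor in carbohydrate, so that the liver, and in the gut the epithelium itself, makes ketone bodies from fatty acids. The labels name the species, the tissue and the 2 diets. They give no genotype, strain, age, sex or time on the diet, and they do not say whether a library came from 1 animal or from several, so each p-value rests on the variation among these 4 libraries, which may be technical. Enterocytes, goblet, Paneth, tuft, stem and transit amplifying cells of the same libraries serve for comparison.

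Enteroendocrine cells are scattered hormone-secreting cells of the gut epithelium. They arise from crypt stem cells through a short-lived progenitor stage marked by the transcription factor Neurog3. Mature cells store peptide hormones or serotonin in dense-core granules, sense nutrients at the lumen and release their cargo towards blood vessels and nerves. Classic names follow the main product: enterochromaffin cells make serotonin, I cells cholecystokinin, K cells the incretin GIP, L cells the proglucagon product GLP-1, S cells secretin, D cells somatostatin and X cells ghrelin. Single cells often make several of these.

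Summed over its enteroendocrine cells, control library 1 held 380502 UMIs (unique molecular identifiers, each a tagged transcript end) and control library 2 held 750853. Ketogenic library 1 held 1235533 and ketogenic library 2 held 597279. Levels below are CPM, the UMIs of a gene for every 1000000 UMIs of the class sum. The assay tags transcript ends, so they were not divided by gene length. The median enteroendocrine cell had 5758, 5033, 6624.5 and 6126 UMIs in the 4 libraries in that order, with 3.61% to 4.05% of them mitochondrial, against 9.14% in enterocytes. Of 14943 distinct barcodes, 109 occurred in more than 1 library, and 3 enteroendocrine cells carried one. In each diet the 2 libraries differed by more than sampling noise (chi-square over degrees of freedom 2.47 and 1.85), so none was a copy of another.

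The label was checked against 8 markers (Chga, Chgb, Neurod1, Tph1, Cck, Gcg, Sct and Pyy). At least 3 of them had a UMI in 345 of the 492 cells (70.1%), against 0.118% of enterocytes, 0.553% of goblet cells and 1.60% of Paneth cells, whose median depths of 8208, 8364 and 6543 UMIs were higher. By library the share was 79.4%, 62.8%, 73.1% and 69.5%. None of the 8 was seen in 39 cells, and 38 of those had at least 2 UMIs of Neurog3. A Neurog3 UMI occurred in 353 cells (71.7%), against 1.26% of enterocytes. The class thus joins hormone-rich cells and cells rich in the progenitor factor, and it was described in both respects.

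Markers of other cells were looked for in the same sums. Of the immune markers Ptprc, Cd3e, Cd3g and Jchain were at 0, of the stromal markers Col1a1, Col3a1 and Dcn, of the neuronal and glial markers S100b and Sox10, and of the tuft markers Gfi1b and Il25. Other members of these lists were present. The 5 stromal markers summed to 347, 158, 365 and 429 CPM in control 1, control 2, ketogenic 1 and ketogenic 2, nearly all of it Vim, a filament gene, against 0.884 CPM in enterocytes. The 6 neuronal and glial markers summed to 160.3, 168, 209.6 and 177 CPM, most of it Tubb3, a tubulin gene of neurons, against 1.59 CPM in enterocytes. The 8 enterocyte markers summed to 781, 559, 706 and 628 CPM, against 3069.9, 2971, 5073 and 3085 CPM in enterocytes. The 7 goblet markers summed to 4213, 5757, 5889 and 4130.4 CPM, most of it Tff3, against 72604 to 84964 CPM in goblet cells. The 7 Paneth markers summed to 386, 334, 493 and 353 CPM. Genes of MHC class II summed to 168 CPM in control 1 and 9.71 to 26.6 CPM in the other libraries.

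Of 20 listed peptide hormone genes, 9 reached 20 CPM in these cells, and 14 were higher there than in any other class. The listed hormone genes summed to 22152, 19796, 23305 and 24700.3 CPM in control 1, control 2, ketogenic 1 and ketogenic 2, against 511 in goblet cells and 31.2 in enterocytes. Gip, which encodes the incretin of K cells, was the most abundant over all libraries at 5505 CPM, with 7955, 2930.00, 4167 and 9947 CPM in the libraries in that order. The richest cell of each library held 36.4% to 59.0% of its Gip UMIs. Cck (cholecystokinin) was even over the libraries, at 4299.6, 4340.4, 5019.7 and 4752 CPM. Ghrl (ghrelin) stood at 4005, 3914, 5966 and 1867 CPM, and Sst (somatostatin) at 1837, 4939.7, 2979 and 3029 CPM.

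The remaining hormones were less abundant or less even. Gcg, the proglucagon gene of L cells, ran from 292 CPM in control 1 to 2642 CPM in ketogenic 1. Sct (secretin) ran from 1482 to 1924 CPM. Tac1, the substance P precursor of enterochromaffin cells, ran from 629 to 1763 CPM. Iapp, the amylin gene, was at 7.88, 128, 158 and 78.7 CPM, and Pyy, the L cell peptide, at 44.7, 6.66, 28.3 and 156 CPM, where 1 cell of ketogenic 2 held 89 of its 93 Pyy UMIs. Of the listed hormone genes, 5 had no UMI in any of these cells. Cck was 573 times, Gcg 565 times and Ghrl 355 times the level of the next highest class, whereas Sct was only 3.97 times that of Paneth cells.

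**Figure D1:**
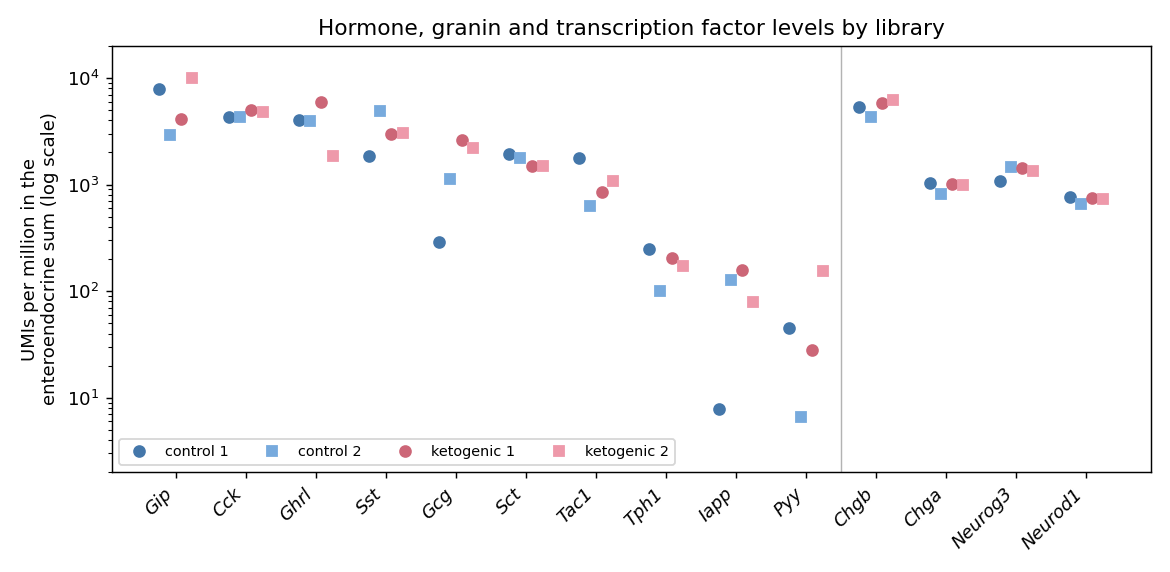
Level (CPM of the enteroendocrine sum, log axis) of 10 hormone or Tph1 genes, 2 granins and 2 transcription factors, with 1 point for each of the 4 libraries. Cck, Chgb, Chga and Neurod1 lie close together over the libraries, while Gcg, Iapp and Pyy spread over the largest ranges.

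The granule machinery was present in every library. Chgb (chromogranin B), an acidic granule protein, reached 5388, 4347, 5882 and 6159.6 CPM, 455 times the next highest class. Chga (chromogranin A) stood at 1030.2, 809.7, 1002 and 988 CPM. The prohormone convertase gene Pcsk1 ran from 109 to 121 CPM, its inhibitor Pcsk1n from 117 to 223 CPM, the carboxypeptidase gene Cpe from 337 to 570.3 CPM and the amidating enzyme gene Pam from 55.9 to 152 CPM. Of 15 listed granin and processing genes, 12 reached 20 CPM and 10 of these were at least 10 times any other class.

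Serotonin synthesis was represented by Tph1, the rate-limiting tryptophan hydroxylase of the gut, at 247, 99.9, 203 and 172 CPM. Ddc, which decarboxylates the intermediate, stood at 621 CPM over all libraries, and Gch1, which makes the hydroxylase's cofactor, at 408 CPM, 29.3 times the next class. The vesicular monoamine transporter gene Slc18a1 was at 64.4 CPM. Of 36 vesicle and excitability genes, 21 reached 20 CPM, among them the complexin Cplx2 (227 CPM) and the calcium channel subunits Cacna1a (354 CPM) and Cacna2d1 (152 CPM).

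Among 37 listed transcription factors, 29 reached 20 CPM and 18 were also at least 10 times any other class. Neurog3 stood at 1091, 1470.3, 1416 and 1346 CPM and its target Neurod1 at 762, 663, 751 and 727 CPM. Insm1, a repressor needed for endocrine differentiation, stood at 593 CPM. The islet-type factors Isl1 (381 CPM), Nkx2-2 (355 CPM), Pax4 (198 CPM) and Pax6 (138 CPM) were all low elsewhere, with Isl1 at 439 times the next class. Sox4 was high (1574 CPM) but only 1.22 times its level in tuft cells.

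Nutrient receptors were sparse. Of 37 listed receptor genes, 5 reached 20 CPM and 14 had no UMI in the class. The short-chain fatty acid receptor gene Ffar2 was the highest at 152, 202, 171 and 204 CPM. The long-chain fatty acid receptor gene Ffar1 was at 29.0 CPM and 286 times the next class. The growth hormone receptor gene Ghr was at 65.4 CPM, and the sodium-glucose cotransporter gene Slc5a1 at 43.5 CPM, below its 91.8 CPM in enterocytes.

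Ranked by the ratio to the next highest class among genes of at least 50 CPM, the first 20 genes held 4 hormone genes (Cck, Gcg, Ghrl and Tac1), the granule genes Chgb and Pcsk1n and the factors Isl1, Myt1, Pax6 and Fev. They also held Hmgn3, a nucleosome-binding protein gene (919 CPM, 463 times tuft cells), Scgn, which encodes the calcium sensor secretagogin (356 CPM, 447 times goblet cells), and the cytoskeletal genes Nefm (104 CPM) and Map1b (122 CPM). Vim, the intermediate filament gene often read as mesenchymal, stood at 334, 156, 363 and 427 CPM, while Col1a1, Col3a1 and Dcn had no UMI. No test of the class against the others was made, because the class was assigned from the same cells.

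The cells were divided by 2 quantities: at least 5 UMIs of Neurog3, and at least 5 UMIs of the hormone gene (or Tph1) with most UMIs in the cell. Neurog3 without a hormone described 180 cells (36.6%), both 69 cells (14.0%), a hormone without Neurog3 179 cells (36.4%) and neither 64 cells (13.0%). The first range took 28.6, 43.9, 34.9 and 33.7% of the class in control 1, control 2, ketogenic 1 and ketogenic 2. The third took 47.6, 31.1, 34.9 and 40.0%. Values of the 2 diets overlapped in both (exact permutation p = 1, two-sided; 2 libraries against 2 cannot go below 0.333).

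Cells with Neurog3 and a hormone made up 12.7, 8.11, 17.7 and 16.8% of the class. Both ketogenic libraries lay above both control libraries, at the smallest p that the design allows (0.333). With each cell thinned to 2000 UMIs, which left out 5 control cells, the shares were 1.59, 1.40, 4.30 and 3.16%, from 14 cells in all. The ranges have no sharp edge, since 80 cells had 3 to 6 Neurog3 UMIs and 65 had 3 to 6 UMIs of their leading gene. Neurog3 at 5 or more UMIs also occurred in 38 goblet cells and 1 Paneth cell, and in none of the enterocyte, stem, transit amplifying or tuft cells.

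**Figure D2:**
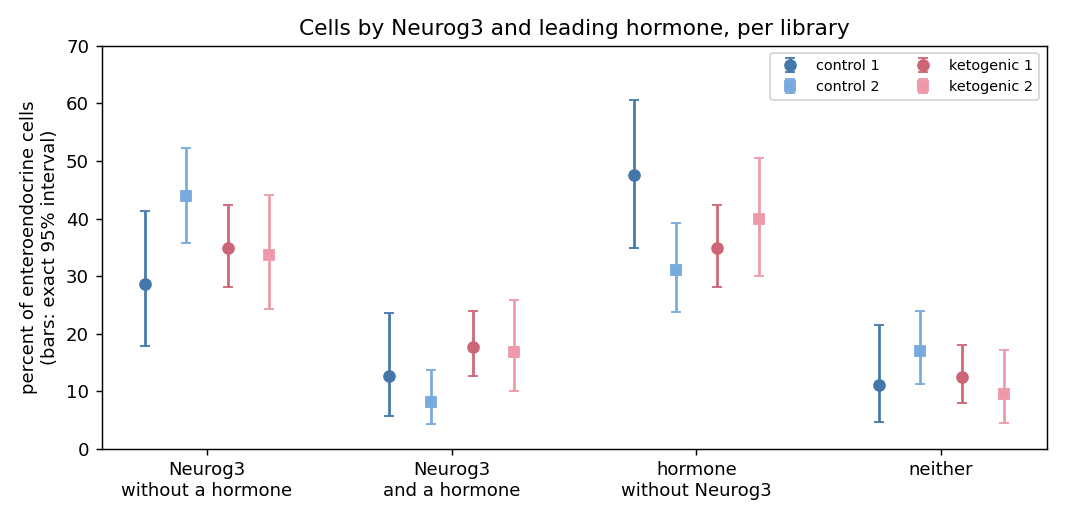
Percent of the enteroendocrine cells of each library in the 4 ranges, with exact (Clopper-Pearson) 95% intervals that cover counting error only. The libraries of the 2 diets overlap in 3 ranges and not in the range with Neurog3 and a hormone, where both ketogenic libraries are higher (17.7% and 16.8% against 12.7% and 8.11%).

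Cells with Neurog3 and no hormone carried genes of early endocrine commitment. Sox4 stood at 2605 CPM (libraries 2297 to 3149) there and at 497 CPM (libraries 303 to 594) in the cells with a hormone and no Neurog3. Dll1, the Notch ligand of secretory precursors, was at 81.0 CPM (libraries 63.1 to 124) against 17.2 CPM (libraries 9.45 to 25.4). Neurod2 was at 216 CPM (libraries 193 to 228) against 50.5 CPM (libraries 18.8 to 78.7), Pax4 at 249 CPM (libraries 192 to 323) against 86.8 CPM (libraries 37.8 to 109). The goblet product gene Tff3 was also higher there, 6355 CPM (libraries 5024 to 6798) against 1571 CPM (libraries 821 to 2298).

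Hormone-rich cells without Neurog3 carried genes of mature endocrine cells. Isl1 stood at 782 CPM (libraries 777 to 793) against 86.1 CPM (libraries 34.3 to 124), and Pax6 at 339 CPM (libraries 309.7 to 413) against 17.5 CPM (libraries 8.58 to 49.7). Processing genes followed, with Cpe at 1086 CPM (libraries 1044 to 1119.5) against 71.0 CPM (libraries 43.9 to 91.2) and Pam at 194 CPM (libraries 162 to 291) against 6.68 CPM (libraries 4.18 to 24.9). The fatty acid receptor gene Ffar1 was at 85.8 CPM (libraries 66.1 to 122) and had no UMI in the 180 cells of the other range. The cell cycle inhibitor genes Cdkn1a and Cdkn1c were at 1520.4 and 958 CPM against 529 and 326 CPM. Neurog3 and the hormones set these ranges and the genes were chosen after their values were seen, so the values are a description without a test.

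By leading gene, 248 cells divided into 66 led by Tac1, 63 by Cck, 37 by Ghrl, 33 by Sct, 24 by Gip, 16 by Sst, 5 by Tph1 and 4 by Gcg; the other 244 cells had no such gene at 5 UMIs. Median depth ran from 4362.5 UMIs in Sst-led cells to 6161 in cells with none. The leading gene was carried at very different strength, with a median of 483 UMIs per cell for Sst, 351 for Gip, 133 for Ghrl, 36.5 for Tac1, 19.0 for Cck and 12 for Sct. Sct also led 467 of 1989 goblet cells and 51 of 188 Paneth cells, while a hormone other than Sct reached 5 UMIs in 0.452% of goblet cells and 0.0472% of enterocytes.

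Transcription factors differed between the cells so named. Tac1-led cells had Lmx1a at 243 CPM and Mnx1 at 260.4 CPM, and no UMI of Isl1. Isl1 was at 1811 CPM in Sst-led, 1193 CPM in Ghrl-led and 915 CPM in Gip-led cells. Hhex, a factor of somatostatin cells, was at 1190.3 CPM in Sst-led cells and between 0 and 57.4 CPM in the other groups of more than 5 cells. Pax6 was highest in Gip-led cells (571 CPM), and Etv1 in Cck-led cells (141 CPM).

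Granule and excitability genes divided the same cells. Chgb reached 23077 CPM in Tac1-led cells but 234 CPM in Ghrl-led cells. Scg2 was at 279 CPM in Gip-led and 190.3 CPM in Cck-led cells, and had no UMI in Tac1-led cells. The sodium channel gene Scn3a (459 CPM), the small GTPase gene Rab3c (334 CPM) and Slc18a1 (228 CPM) were highest in Tac1-led cells. Ffar1 was at 126 and 104 CPM in Cck-led and Gip-led cells, and Gper1, a membrane oestrogen receptor gene, at 197 CPM in Ghrl-led cells. Iapp stood at 4373 CPM in Sst-led cells and at most 6.49 CPM in the other groups of more than 5 cells. These genes too were picked after their values were seen.

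**Figure D3:**
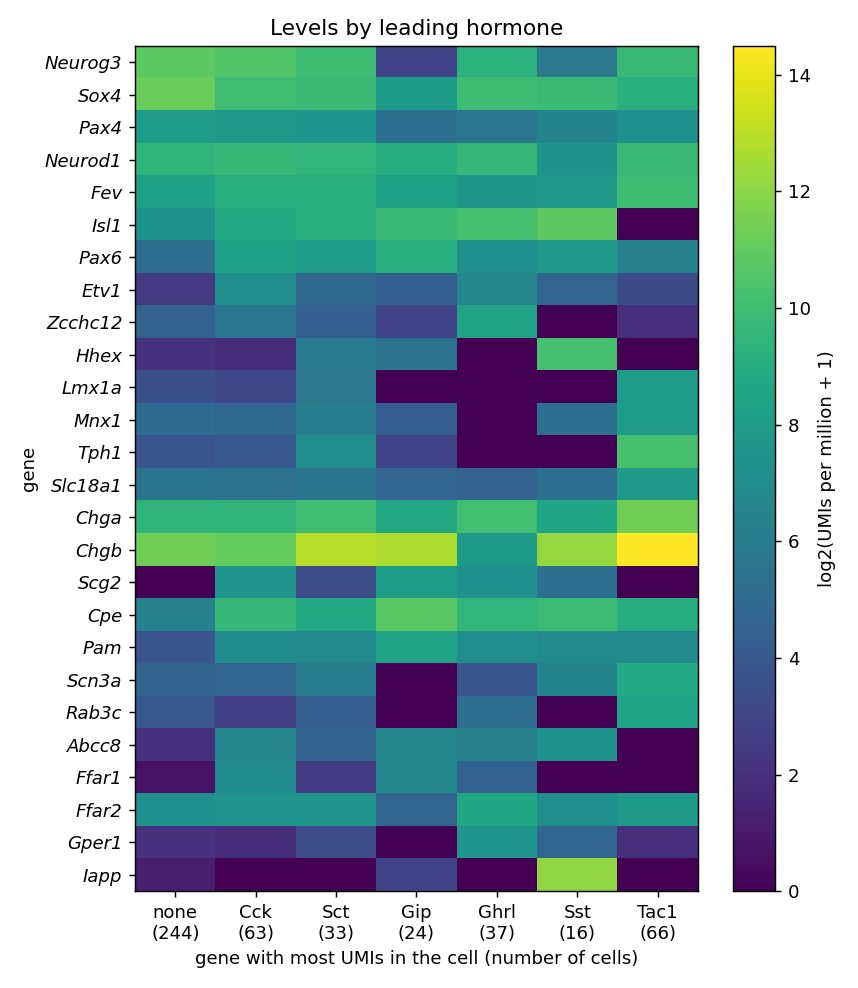
Level of 26 genes (rows; colour is log2 of CPM plus 1) in cells grouped by the hormone gene with most UMIs (columns, with the number of cells). Lmx1a, Tph1 and Rab3c are brightest, within their rows, in the Tac1 column, Hhex and Iapp in the Sst column, Gper1 in the Ghrl column, and Neurog3 and Sox4 in the column with no hormone.

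Several hormones often met in the same cell. At 5 or more UMIs, 105 cells held 1 of 8 genes (Tph1, Gcg, Cck, Sct, Gip, Sst, Ghrl, Tac1), 73 held 2 and 70 held 3 or more. Tph1 and Tac1 met in 39 of the 44 Tph1 cells and the 73 Tac1 cells. All 20 Gcg cells also held Cck and Sct at that level. Sct accompanied Gip in 32 of 35 Gip cells, and Cck and Sct met in 58 cells (62.4% of Cck cells, 43.6% of Sct cells). Ghrl occurred in 12 of 17 Sst cells. Tac1 met Cck in 1 cell and met Ghrl, Sst or Gcg in none. The pairs Tph1 with Tac1, Gcg with Cck, Cck with Sct, Sct with Gip and Sst with Ghrl were seen in every library. Droplets that caught more than 1 cell would count as pairs too, and their part was not tested.

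The first diet question was whether these cells became more frequent. They made up 1.78, 3.02, 5.82 and 2.78% of captured cells in control 1, control 2, ketogenic 1 and ketogenic 2 (exact 95% intervals 1.37 to 2.27, 2.56 to 3.54, 5.04 to 6.69 and 2.26 to 3.39). The diets overlapped, since ketogenic 2 lay below control 2. In edgeR's quasi-likelihood test the share differed by 0.83 ± 0.46 (log2, SE) with an adjusted p of 0.252. Without ketogenic 2 the difference was 1.26 with an adjusted p of 0.0222, and without ketogenic 1 it was 0.19. Of the goblet, Paneth, tuft and enteroendocrine cells together, the enteroendocrine cells were 9.89, 16.6, 22.3 and 13.0%.

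No hormone passed the test for a diet difference. Of 10 hormone genes with enough counts, 0 were called by edgeR at an adjusted p under 0.05, where 4 of all 6877 genes were called (0.0582%; 4.61% had an unadjusted p under 0.05, 2.18% higher and 2.43% lower, and DESeq2 called 4). At that unadjusted threshold the list held 3 genes, Gcg and Pyy higher and Gal lower. The list's median difference was 0.11 (log2), against 0.0038 over all genes. Cck, at 4193, 4677, 5273 and 4894 CPM after TMM scaling, differed by 0.20 ± 0.21 (log2, SE). Sct, at 1876, 1903, 1562 and 1526 CPM, differed by -0.29 ± 0.18 (log2, SE). Ghrl, at 3906, 4218, 6267 and 1923 CPM, had its highest and its lowest library within the ketogenic diet. For Gip, Sst, Tac1 and Iapp the libraries of the diets overlapped likewise.

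Gal and Gcg had the smallest p-values among the hormones. Gcg stood at 284, 1208, 2775 and 2285 CPM in control 1, control 2, ketogenic 1 and ketogenic 2, so that both ketogenic libraries were higher, and differed by 1.73 ± 0.39 (log2, SE) with an adjusted p of 0.276. The reads came from few cells: 5, 7, 13 and 7 cells had a Gcg UMI, and the richest cell held 90.1, 53.8, 32.2 and 56.0% of them. Without control 1 the difference was 1.06, and without control 2 it was 3.16; over the alternatives tried the adjusted p ran from 5.91e-92 to 1.00. Gal (galanin) stood at 23.1, 18.7, 1.70 and 3.45 CPM with an adjusted p of 0.276, from 9, 13, 2 and 2 UMIs. Pyy (peptide YY) stood at 43.6, 7.18, 29.8 and 160.4 CPM, with the diets overlapping, and differed by 1.97 ± 0.72 (log2, SE) with an adjusted p of 0.897.

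The secretory apparatus and its regulators gave no call either. In edgeR's test 0 of 12 granin and processing genes, 0 of 9 serotonin genes, 0 of 23 vesicle and excitability genes, 0 of 29 transcription factors and 0 of 9 receptor genes passed, and DESeq2 called none of them. Of all 6877 genes 4 passed in edgeR's test (0.0582%), so 0 calls in lists this short says little about them. The median differences of these lists were 0.14, 0.0038, 0.05, 0.07 and 0.03 (log2). At an unadjusted p under 0.05, which 4.61% of all genes reached, these lists held 1 gene. It was Pcsk1n, at 189.6, 126, 221 and 229 CPM (adjusted p = 0.889). Both ketogenic libraries lay above both control libraries for 10 of the 29 factors and below them for 2, where 16.8% and 16.1% of all genes did so. Counts were simulated from these sums with the same relative spread between libraries for every gene. On them the test found 91.4% of 4-fold, 45.3% of 2-fold and 9.72% of 1.5-fold changes, beside 8 calls among the unchanged of the 6816 genes run. For a gene of that spread, a difference near 1.5-fold was mostly not detectable with 2 libraries per diet at this depth. The rates were not worked out for genes that vary more, such as Gcg, whose UMIs lay in few cells.

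The level of Fabp1 rose on the ketogenic diet, and those of Reg3b and Reg3g fell. In all, edgeR called 4 genes in the class, 2 of 6877 in each direction (0.0291% each), and DESeq2 called the same 4. Fabp1 encodes the liver-type fatty acid binding protein and is a known target of the nuclear receptor PPARα. Reg3b and Reg3g encode secreted antibacterial lectins of the gut; they are related genes, and how reads that map to both were counted is not stated.

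Fabp1 stood at 66.6, 77.5, 299 and 203 CPM in control 1, control 2, ketogenic 1 and ketogenic 2. Both ketogenic libraries lay far above both control libraries, with a difference of 1.81 ± 0.22 (log2, SE) and an adjusted p of 0.00124. In control 1 and control 2, 1 cell held 11 of 26 and 25 of 54 of its UMIs. A Fabp1 UMI was seen in 20.6, 17.6, 72.6 and 49.5% of the cells, and in 6.35, 9.79, 44.1 and 23.2% once each cell was thinned to 2000 UMIs. In tuft cells, with a median of 7492, 5557, 8138 and 7604 UMIs per cell, the shares were 24.1, 31.1, 84.5 and 63.0%, and after thinning 10.1, 16.4, 44.8 and 27.8%. The thinned enteroendocrine share lay below the tuft share in all 4 libraries, so it was not read as expression by these cells, and the difference is one of the Fabp1 UMIs counted in them. Over the alternatives tried that gave a value, the adjusted p of Fabp1 ran from 2.77e-13 to 0.0301.

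Fabp1 UMIs were counted in the Neurog3-rich and in the hormone-rich cells. In cells with Neurog3 and no hormone it was 16.6, 95.9, 261 and 163 CPM in the 4 libraries, and in cells with a hormone and no Neurog3 128, 61.4, 386 and 258 CPM. In each range both ketogenic libraries lay above both control libraries. Whether the diet difference itself differed between the ranges was not tested. In the 249 cells with at least 5 Neurog3 UMIs alone, Fabp1 differed by 1.61 (adjusted p = 0.0301), and in the other 243 cells by 2.06 (adjusted p = 0.00482).

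Reg3b stood at 69.2, 179, 13.6 and 25.9 CPM, a difference of -2.89 ± 0.39 (log2, SE) with an adjusted p of 0.00296. Reg3g stood at 46.1, 125, 5.95 and 15.5 CPM, a difference of -3.31 ± 0.46 (log2, SE) with an adjusted p of 0.00333. For both genes the diets did not overlap, and control 2 was the highest library. Single cells weighed heavily: in control 2, 1 cell held 58 of 125 Reg3b UMIs and 1 cell 36 of 87 Reg3g UMIs. Without the cell richest in each called gene in each library, 14 of the 492 cells, Reg3b differed by -1.64 and no longer passed (adjusted p = 0.118), Reg3g had too few counts for the test, and Fabp1 (2.46) still passed. Over the 17 alternatives that gave a value, the adjusted p of Reg3b ran from 1.64e-20 to 0.118.

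In numbers of cells these lectins differed. After thinning to 2000 UMIs, 15.9, 9.09, 3.23 and 3.16% of the cells had a Reg3b UMI in control 1, control 2, ketogenic 1 and ketogenic 2, with both control libraries above both ketogenic libraries. For Reg3g the shares were 4.76, 4.90, 1.61 and 5.26%, and they overlapped. In tuft cells the thinned shares were 8.86, 10.3, 4.31 and 3.70% for Reg3b and 3.80, 4.31, 2.59 and 3.70% for Reg3g. The enteroendocrine share of Reg3b lay above the tuft share in control 1 and below it in the other 3 libraries, where it was not read as expression by these cells. The share of Reg3g lay below the tuft share in ketogenic 1 and above it in the other 3 libraries.

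Enterocytes, the most numerous class, carry much more of these transcripts. Fabp1 in enteroendocrine cells was at 0.0434 to 0.0879 of its level in enterocytes of the same library, Reg3b at 0.0281 to 0.0883 and Reg3g at 0.0184 to 0.122. For 8 enterocyte markers the median ratio was 0.114 to 0.156 by library. Without the 10% of cells richest in markers of other classes, all 3 genes still passed, with differences of 1.47 for Fabp1, -3.07 for Reg3b and -3.55 for Reg3g. RNA carried over from enterocytes in the remaining cells was not tested.

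**Figure D4:**
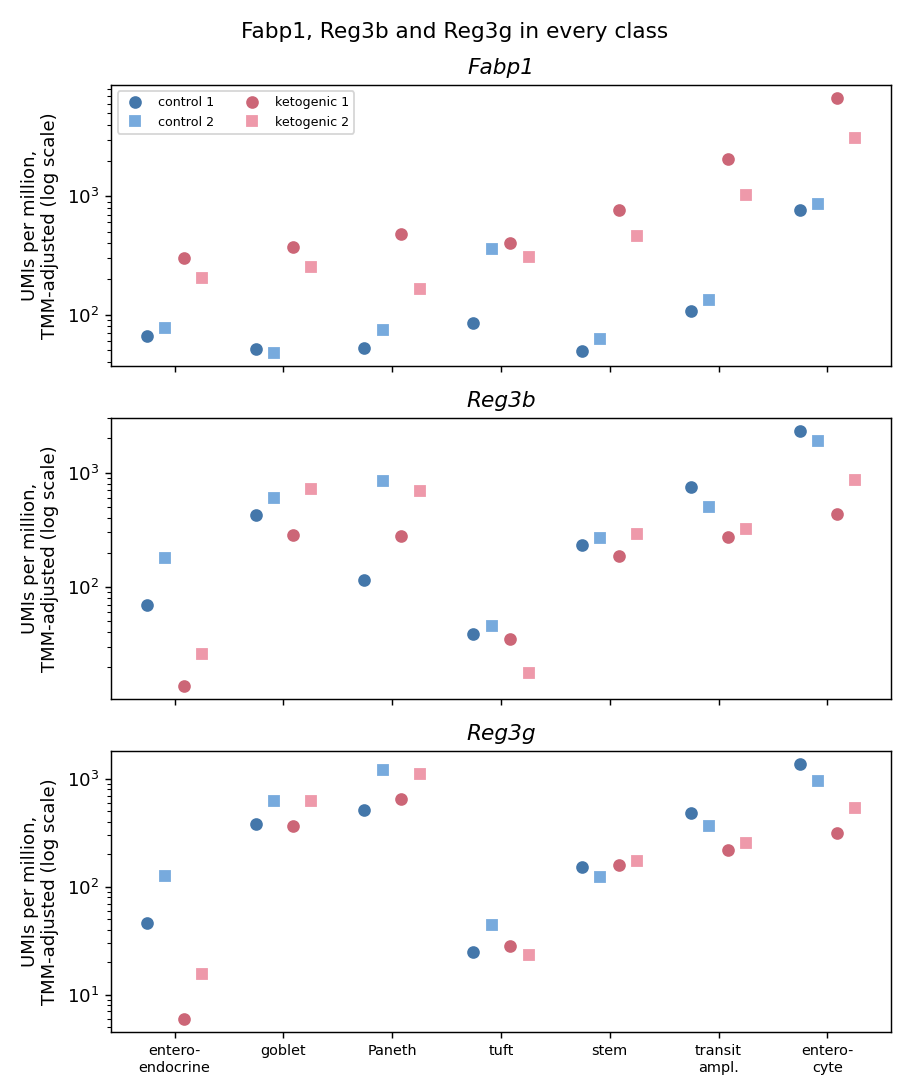
Level of Fabp1, Reg3b and Reg3g (TMM-adjusted CPM, log axis) in each of 7 classes, with 1 point per library. The Fabp1 level is higher in both ketogenic libraries in every class but tuft cells. There control 2 lies above ketogenic 2, although the share of cells with a UMI is higher in both ketogenic libraries. Reg3b and Reg3g are lower in both ketogenic libraries in enteroendocrine cells, transit amplifying cells and enterocytes but not in goblet cells. In tuft cells Reg3b is lower in both ketogenic libraries, while the diets overlap for Reg3g.

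The same genes were read in the other classes. Fabp1 differed by 2.64 ± 0.15 (adjusted p = 1.09e-07) in goblet cells, 2.60 ± 0.34 (adjusted p = 0.0518) in enterocytes and 0.65 ± 0.36 (adjusted p = 0.889) in tuft cells. Reg3b, at 426, 595, 286 and 715 CPM in goblet cells, differed there by -0.03 ± 0.26 (adjusted p = 0.990), and Reg3g by -0.02 ± 0.21 (adjusted p = 0.990). In transit amplifying cells Reg3b differed by -1.07 ± 0.16 (adjusted p = 0.00711) and Reg3g by -0.85 ± 0.13 (adjusted p = 0.00764). In enterocytes the differences were -1.70 ± 0.30 (adjusted p = 0.120) and -1.46 ± 0.27 (adjusted p = 0.123). Tuft cells had -0.68 ± 0.33 (adjusted p = 0.871) and -0.44 ± 0.33 (adjusted p = 0.952). Stem cells had -0.06 and 0.30, and Paneth cells 0.0065 and 0.04. The difference between enteroendocrine and goblet cells in the diet effect, fitted with the library as a block, was -2.59 ± 0.29 (log2, SE; adjusted p = 6.00e-10) for Reg3b and -3.09 ± 0.34 (log2, SE; adjusted p = 5.56e-10) for Reg3g, enteroendocrine minus goblet. Against enterocytes it was -1.82 ± 0.43 (log2, SE; adjusted p = 0.0352) for Reg3g, passing in 4 of 7 alternatives (-2.49 to -0.48), and Reg3b was not called. No difference in the diet effect of Fabp1 from goblet cells, tuft cells or enterocytes was called, nor one of Reg3b or Reg3g from tuft cells. The differences between classes were not fitted without the richest cells.

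Positions are given for the mm10 build from GENCODE M21. Fabp1 lies at chr6:71199827-71205023 (plus strand), Reg3b at chr6:78370657-78373466 (plus) and Reg3g at chr6:78466269-78468872 (minus), all protein-coding. The 2 lectin genes, which fell together, lie close to each other on chromosome 6. RefSeq promoter sequences (GRCm38.p6, 250 bases before to 50 after the start) matched all 3 of these genes. They are shown because Fabp1 belongs to the fat oxidation list described next and because the lectin genes moved together.

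Fabp1 (chr6:71199629-71199928, plus strand): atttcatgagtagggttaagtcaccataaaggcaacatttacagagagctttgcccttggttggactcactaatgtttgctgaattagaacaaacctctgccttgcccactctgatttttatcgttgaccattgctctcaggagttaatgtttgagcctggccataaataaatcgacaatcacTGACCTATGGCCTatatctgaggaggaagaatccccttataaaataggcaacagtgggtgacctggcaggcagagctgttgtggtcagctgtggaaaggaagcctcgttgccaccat

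Reg3b (chr6:78370635-78370934, plus strand): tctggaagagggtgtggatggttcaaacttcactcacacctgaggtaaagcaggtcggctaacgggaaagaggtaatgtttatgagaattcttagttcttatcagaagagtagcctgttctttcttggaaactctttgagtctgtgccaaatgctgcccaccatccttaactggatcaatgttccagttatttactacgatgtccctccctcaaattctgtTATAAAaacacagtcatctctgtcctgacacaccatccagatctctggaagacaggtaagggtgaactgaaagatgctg

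Reg3g (chr6:78468825-78469124, minus strand): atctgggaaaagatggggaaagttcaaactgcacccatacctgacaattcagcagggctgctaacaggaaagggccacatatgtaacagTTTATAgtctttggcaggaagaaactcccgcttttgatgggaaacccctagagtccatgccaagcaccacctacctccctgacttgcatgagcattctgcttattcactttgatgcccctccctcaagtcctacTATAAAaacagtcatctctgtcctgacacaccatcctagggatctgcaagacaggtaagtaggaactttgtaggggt

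In the Fabp1 sequence the capitals mark a match, on the other strand, to the nuclear receptor half-site AGGNCA repeated after 1 spacer base of any kind, where N is any base, between bases -67 and -55 from the start; of 32851 promoters of this length, 0.381% hold one on either strand. In the lectin sequences the capitals mark TATAAA searched on either strand, which 13.6% of promoters hold. On the strand of the gene it lies at -29 to -24 in Reg3b and at -27 to -22 in Reg3g. The Fabp1 sequence also holds TATAAA on the strand of the gene, left in small letters, so the match is not particular to the lectin genes. These positions count from the RefSeq start, which for Fabp1 and Reg3b lies inside the GENCODE span given above. An alignment of the 2 lectin promoters was identical at 207 of 304 positions (68.1%). A match is a description of the letters and not a measured binding site.

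The list of PPAR targets and fatty acid oxidation genes, its 2 called genes included, lay mostly above 0. Of its 36 measured members, 2 rose, 10 had an unadjusted p under 0.05 and a higher level on the ketogenic diet, 0 had one with a lower level, and 30 lay above 0. The median difference was 0.24 (log2), against 0.0038 over all genes, of which 2.18% were higher at that unadjusted threshold. Acot1, a long-chain acyl-CoA thioesterase gene, stood at 23.1, 48.8, 111 and 91.4 CPM and missed the threshold (adjusted p = 0.107). Eci2, an enoyl-CoA isomerase gene of fatty acid oxidation, stood at 99.9, 118, 208 and 198 CPM (adjusted p = 0.142), and Cpt1a, which admits fatty acids to mitochondria, at 15.4, 20.1, 40.0 and 29.3 CPM (adjusted p = 0.897). EdgeR's test called Acot1 and Eci2 higher in goblet, stem and transit amplifying cells, and Acot1 in enterocytes, but neither in tuft cells. In enteroendocrine cells both ketogenic libraries lay above both control libraries for 20 of the 36, where 16.8% of all genes did. Acot1 differed by 2.17 without control 2, 1.08 without control 1 and 1.52 without ketogenic 2 (log2), each of which leaves 1 library in a diet. Over the 17 alternatives that gave a value, Acot1 passed in 7, and its difference ran from 0.84 to 2.17 (log2).

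Genes of the unfolded protein response, which adjusts the folding capacity of the secretory pathway, leaned the other way. Of 19 measured members 0 passed in edgeR's test (10 at an unadjusted p under 0.05, all lower on the ketogenic diet, where 2.43% of all genes were lower at that threshold; DESeq2 called 0). Of the 19, 18 lay below 0, as did 3403 of all 6877 genes, and the median was -0.38. Hspa5, the chaperone BiP, stood at 579, 329, 199 and 272 CPM (adjusted p = 0.433), Creld2 at 159, 61.7, 41.7 and 60.4 CPM (adjusted p = 0.886) and Manf at 451, 255, 186 and 248 CPM (adjusted p = 0.886). Control 1 was the highest library for each. Hspa5 also lay below 0 in every other class, from -0.13 (log2) in Paneth cells to -0.76 in tuft cells. There edgeR's test called it in goblet cells (adjusted p = 0.00224) and transit amplifying cells (adjusted p = 0.0141). In enteroendocrine cells the list summed to 5101, 3338, 3011 and 3169 CPM, and the median difference was -0.28 without control 1 and -0.67 without control 2.

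Of 19 genes of sugar digestion, transport and glycolysis, 0 passed in edgeR's test or DESeq2 and 15 lay below 0, with a median of -0.22. Khk, the fructose-metabolizing ketohexokinase gene, stood at 48.7, 54.5, 25.5 and 22.4 CPM (adjusted p = 0.577) and Hk2, a hexokinase gene, at 243, 205, 165 and 145 CPM (adjusted p = 0.886). Pfkl, a phosphofructokinase gene, went against the list at 33.3, 31.6, 56.1 and 51.7 CPM (adjusted p = 0.897). Of 20 genes of lipogenesis and cholesterol synthesis 0 passed, with a median of -0.12, and 0 of 4 interferon, 9 immediate early and 6 glucocorticoid response genes did. Among the markers of other classes, the enterocyte list held 3 called genes, Fabp1, Reg3b and Reg3g, of 13 measured. The goblet, Paneth, stem cell and proliferation lists held 0 of 9, 6, 12 and 8. Of all 6877 genes 4 were called (0.0582%) and 3403 lay below 0, so 0 calls in such short lists says little about them.

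**Figure D5:**
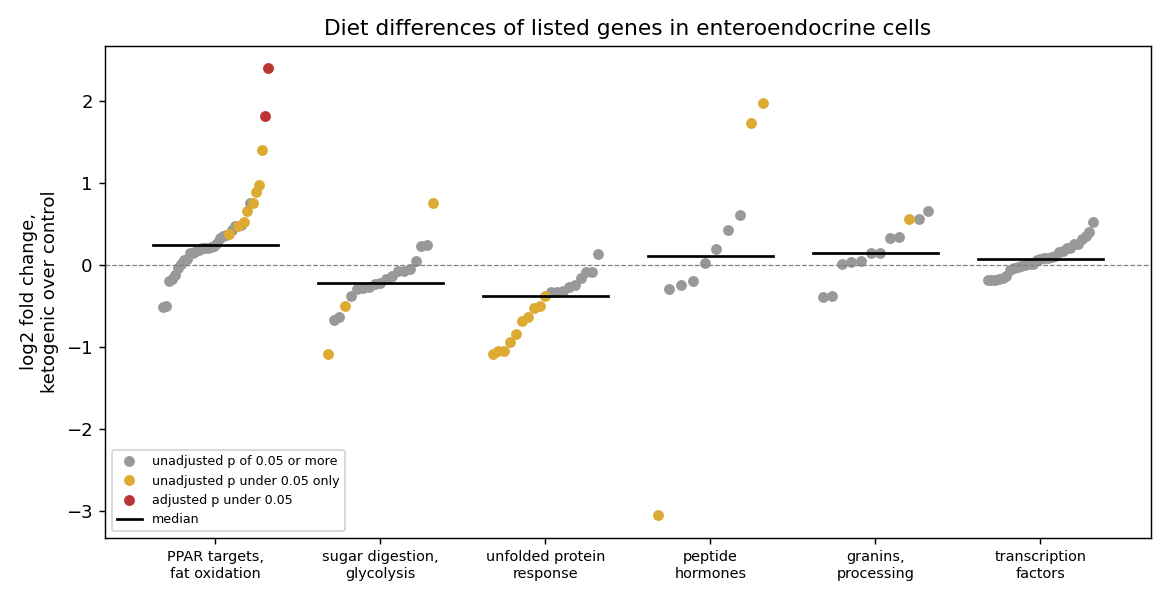
Difference between diets (log2, ketogenic over control) of each measured gene of 6 lists, with the list's median as a line and the colour giving the side of the test's threshold. The fat oxidation genes lie mostly above 0 and the unfolded protein response genes mostly below it, while the hormone, granin and transcription factor lists have medians of 0.11, 0.14 and 0.07.

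Diet effects in enteroendocrine cells were then set against those in other classes, gene by gene, in 1 fit per pair of classes with library as a block. Against enterocytes 27 of 12265 genes differed (0.22%), 15 higher (0.122%) and 12 lower (0.0978%), while DESeq2 called 4. Sis, the sucrase-isomaltase of the brush border, stood at 221, 310.3, 222 and 189 CPM in enteroendocrine cells and at 593, 433, 67.8 and 48.5 CPM in enterocytes. The 2 diets overlapped in the first and were far apart in the second, and the diet effects differed by 2.71 ± 0.21 (log2, SE; adjusted p = 1.11e-16). In both ketogenic libraries the Sis level (CPM) was higher in these cells than in enterocytes, and in both control libraries lower. Tm4sf4, a tetraspanin-like membrane protein gene, stood at 1093, 1080.1, 1487 and 1172 CPM against 3.30, 7.45, 27.6 and 23.8 CPM, with diet effects that differed by -1.95 ± 0.20 (log2, SE; adjusted p = 3.72e-11).

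The thioesterase gene Acot1 also differed between these classes. It stood at 23.7, 45.3, 106 and 88.7 CPM in enteroendocrine cells and 24.9, 41.0, 297 and 185 CPM in enterocytes, so that the classes were close on the control diet and apart on the ketogenic diet. The diet effects differed by -1.42 ± 0.30 (log2, SE; adjusted p = 0.0106), which passed in 4 of 7 alternatives (-1.59 to -1.11). Neurog3 was at 0.551, 1.03, 3.08 and 2.31 CPM in enterocytes, from 10, 20, 46 and 38 UMIs, a diet difference of 1.76 (log2). In enteroendocrine cells it was at 1091, 1470.3, 1416 and 1346 CPM, with the diets overlapping and a difference of 0.11 ± 0.20 (log2, SE). Its diet effects in the 2 classes differed by -1.61 ± 0.32 (log2, SE; adjusted p = 0.00308), which passed in 5 of 7 alternatives (-1.82 to -1.42). That result thus rests on the few Neurog3 UMIs counted in enterocytes.

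Against goblet cells 15 of 10732 genes differed (0.14%), 6 higher (0.0559%) and 9 lower (0.0839%). Against tuft cells 1 of 8037 differed (0.0124%), Agr2. DESeq2 called 4 and 0, with 8 genes at an unadjusted p under 0.05 against tuft cells. Sis again was lower on the ketogenic diet in goblet cells, at 35.4, 25.3, 5.64 and 6.24 CPM, with diet effects that differed by 1.95 ± 0.27 (log2, SE; adjusted p = 1.01e-06). For several of these genes 1 cell held most of the UMIs of a library. The diet effect of Reg4 differed by -5.36 ± 0.46 (log2, SE; adjusted p = 3.39e-14), and 1 enteroendocrine cell of control 2 held 102 of that library's 105 UMIs. That of Gip differed by 3.74 ± 0.40 (log2, SE; adjusted p = 1.87e-10), and 1 goblet cell of control 1 held 1047 of the 1124 UMIs of goblet cells there. That of Agr2 differed by 1.69 ± 0.22 (log2, SE; adjusted p = 0.00255), and 1 tuft cell of control 2 held 142 of 223 UMIs. Without ketogenic 1, or without ketogenic 2, the comparison with tuft cells had 0 calls in edgeR (270 and 271 genes at an unadjusted p under 0.05).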

How the data were processed

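Single-cell RNA was measured in 4 small-intestine libraries with the 10x Single Cell 3' v2 kit. The authors deposited a matrix of raw UMI counts and a cell table with library and cell type. Per the submitters' processing notes, Cell Ranger 2.1.0 and mm10 were used; the filters on cells, the treatment of doublets and the way types were assigned are not stated there or in the labels. Doublets were not called, and leaving out the 10% of cells richest in markers of other classes served as an alternative. The groups come from the diet label.

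Counts of the 492 enteroendocrine cells were summed per library. Diet was tested with edgeR 4.0.16 in R 4.3.3 (TMM, filterByExpr, quasi-likelihood test, Benjamini-Hochberg over all 6877 genes, threshold 0.05), without a replicate block. Differences from other classes used a class-by-diet term with library as a block. The share of cells used a total-cells offset. Each SE given is the size of the log2 difference divided by the square root of its test's F statistic. It is not an error that the fit itself reports. All p-values of genes and shares named adjusted come from these edgeR fits unless DESeq2 1.42.0 is named. Exact permutation tests are two-sided. Intervals are exact binomial at 95% and, like floors, cover counting error only.

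The members, lists and tests were chosen with earlier results of these data known. Genes named are list members of at least 20 CPM, called genes, up to 5 class differences in each direction (mean log2 CPM 5 or higher, diets not overlapping), and the 20 largest ratios to another class among genes of at least 50 CPM. Acot1, Eci2, Cpt1a, Gcg, Gal and the other genes given with a p above the threshold were picked as the list members with the smallest p, or after their values were seen, as were the motifs. Alternatives covered normalization, low-count filter, tool, depth, subsets of cells, blocks and each library left out; those on Neurog3, shared barcodes, the richest cells and thinned ranges were added after the data were seen. Some genes that enter the counts are not reported here. The fits were tested on counts simulated from the real sums, with the same relative spread between libraries for every gene.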

Additional observations from a re-analysis of the deposited data

Results flagged for a closer look

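The results below stand out because the diet effect in enteroendocrine cells differed from that in another class in edgeR's test of the difference itself, enteroendocrine minus other. Against enterocytes the brush border gene Sis differed by 2.71 ± 0.21 (log2, SE; adjusted p = 1.11e-16) and the membrane protein gene Tm4sf4 by -1.95 ± 0.20 (log2, SE; adjusted p = 3.72e-11), and both passed in all 7 alternatives. Sepp1, which encodes selenoprotein P, stood at 594, 571, 563 and 616 CPM in enteroendocrine cells and 36.3, 92.5, 33.0 and 18.4 CPM in enterocytes and differed by 1.32 ± 0.22 (log2, SE; adjusted p = 1.23e-04), passing in 4 of 7 alternatives (0.59 to 1.85). Myl7, a myosin light chain gene, stood at 486, 232, 296 and 343 CPM in enteroendocrine cells and 30.3, 16.5, 6.22 and 12.7 CPM in enterocytes and differed by 1.26 ± 0.19 (log2, SE; adjusted p = 1.78e-05), passing in 5 of 7 alternatives (0.91 to 1.68). In both the enteroendocrine levels of the diets overlapped.

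Trim31 stood at 23.7, 24.0, 44.5 and 58.6 CPM in enteroendocrine cells and 49.9, 31.6, 25.2 and 24.6 CPM in enterocytes and differed by 1.69 ± 0.33 (log2, SE; adjusted p = 0.00252), passing in 4 of 7 alternatives (1.32 to 2.17). Ccdc25 stood at 26.3, 14.7, 30.8 and 55.3 CPM in enteroendocrine cells and 64.3, 55.4, 41.9 and 43.8 CPM in enterocytes and differed by 1.56 ± 0.36 (log2, SE; adjusted p = 0.0302), passing in 4 of 7 alternatives (1.20 to 2.03). Both were lower in both ketogenic libraries of enterocytes and higher in both ketogenic libraries of enteroendocrine cells. The Paneth product gene Lyz1 stood at 171, 45.3, 91.5 and 73.7 CPM in enteroendocrine cells and 11.7, 12.7, 48.9 and 23.1 CPM in enterocytes and differed by -1.73 ± 0.29 (log2, SE; adjusted p = 1.79e-04), passing in 4 of 7 alternatives (-2.62 to -0.77). In control 1, 1 enteroendocrine cell held 43 of 65 Lyz1 UMIs. Without the richest cell of each library the enteroendocrine level was 57.8, 36.0, 81.7 and 61.9 CPM, with both ketogenic libraries above both control libraries. Acot1 differed by -1.42 ± 0.30 (log2, SE; adjusted p = 0.0106), passing in 4 of 7 alternatives (-1.59 to -1.11). Neurog3 differed by -1.61 ± 0.32 (log2, SE; adjusted p = 0.00308), passing in 5 of 7 alternatives (-1.82 to -1.42). The enterocytes held 10, 20, 46 and 38 Neurog3 UMIs, and in enteroendocrine cells the diets overlapped. Reg3g differed by -1.82 ± 0.43 (log2, SE; adjusted p = 0.0352), passing in 4 of 7 alternatives (-2.49 to -0.48).

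Against goblet cells Reg3b differed by -2.59 ± 0.29 (log2, SE; adjusted p = 6.00e-10) and Reg3g by -3.09 ± 0.34 (log2, SE; adjusted p = 5.56e-10), in all 7 alternatives, and Sis by 1.95 ± 0.27 (log2, SE; adjusted p = 1.01e-06) in 6 of 7. Chgb differed by 1.48 ± 0.27 (log2, SE; adjusted p = 9.36e-04), passing in 5 of 7 alternatives (1.30 to 1.65). In goblet cells of control 1, 1 cell held 21 of 41 Chgb UMIs, and in control 2, 1 cell held 29 of 46. Of the UMIs in enteroendocrine cells of control 2, 1 cell held 58 of 125 for Reg3b and 1 cell 36 of 87 for Reg3g. None of the 7 alternatives left out the richest cells. Gcg differed by 2.78 ± 0.57 (log2, SE; adjusted p = 0.00610), passing in 4 of 7 alternatives (1.63 to 4.39), with 100 of 111 UMIs of enteroendocrine cells of control 1 in 1 cell and 2 to 13 UMIs in the goblet cells of a library. Gip differed by 3.74 ± 0.40 (log2, SE; adjusted p = 1.87e-10), passing in 6 of 7 alternatives (1.53 to 4.99), where 1 goblet cell of control 1 held 1047 of 1124 UMIs, and Reg4 by -5.36 ± 0.46 (log2, SE; adjusted p = 3.39e-14), passing in 5 of 7 alternatives (-6.26 to -1.59), where 1 enteroendocrine cell of control 2 held 102 of 105 UMIs.

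The colipase gene Clps stood at 105, 197, 118 and 154 CPM in enteroendocrine cells and 40.6, 66.5, 127 and 88.0 CPM in goblet cells and differed by -1.22 ± 0.22 (log2, SE; adjusted p = 3.57e-04), passing in 4 of 7 alternatives (-1.60 to -0.66). C2cd4b stood at 63.1, 44.0, 46.9 and 80.4 CPM in enteroendocrine cells and 29.6, 11.0, 38.5 and 118 CPM in goblet cells and differed by -1.63 ± 0.31 (log2, SE; adjusted p = 0.00154), passing in 4 of 7 alternatives (-2.17 to -1.18). The nuclear long non-coding RNA Neat1 stood at 94.6, 78.6, 124 and 141 CPM in enteroendocrine cells and 179.8, 138, 122 and 131 CPM in goblet cells and differed by 0.94 ± 0.21 (log2, SE; adjusted p = 0.0167), passing in 3 of 7 alternatives (0.85 to 1.05). Against tuft cells Agr2 differed by 1.69 ± 0.22 (log2, SE; adjusted p = 0.00255), passing in 4 of 7 alternatives (1.39 to 1.79), where 1 tuft cell of control 2 held 142 of 223 UMIs.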

How the results depend on the processing

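The count of genes called in enteroendocrine cells, 4, was 27 without the low-count filter, 7 in cells with fewer than 2 Tph1 UMIs, 2 in cells with fewer than 5 Neurog3 UMIs, 2 without the richest cells, and 0 by edgeR in the 65 cells with 2 or more Tph1 UMIs (79 of 1312 genes at an unadjusted p under 0.05). Leaving out a library gave 11 to 94 calls, the most without control 2 and 37 without control 1, 18 without ketogenic 2, and each kept the 4 genes; an arm of 1 library is then assumed to vary like the other. RLE size factors, DESeq2, thinned sums, the mitochondrial limit, 3 label markers, the top 10% by other markers, 5 Neurog3 UMIs and shared barcodes gave 3 to 6. Reg3g missed the threshold in thinned sums (adjusted p = 0.0723) and Reg3b in cells with fewer than 5 Neurog3 UMIs (adjusted p = 0.0681). Under the mitochondrial limit, which kept 449 cells, Reg3g had too few counts for the test and so no value. The causes were not tested. No named gene reversed. Of 278 values of named genes under alternatives, 47 lost and 24 gained a call, and 105 of 358 list medians moved by 0.1 or more.

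With a replicate block 19 genes were called, including the 4, and the share of cells differed by 0.78. The numbers do not pair the libraries: deviations of same-numbered libraries correlated at -0.034 over genes. Against goblet cells the count of 15 was 4 in DESeq2 and 10 to 62 with a library left out. Against tuft cells the count of 1 was 0 in DESeq2, 4 without the low-count filter and 0 to 72 with a library left out. Against enterocytes the count of 27 was 4 in DESeq2 and 16 to 69 with a library left out. The highest counts came without control 2 in each. The difference in the share of cells ran from 0.19 to 1.27 with a library left out, and passed without ketogenic 2 (1.26, adjusted p = 0.0222).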
